A study of Mus musculus with 8 samples.

Results

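Transforming growth factor beta (TGF-β) signalling was examined through 9 genes, found by their exact symbols among 27998 genes counted in single microglia of the mouse lumbar spinal cord. They were the ligand gene Tgfb1, the receptor genes Tgfbr1 and Tgfbr2, the signal carriers Smad2, Smad3 and Smad4, the inhibitor Smad7, and Ski and Skil, which encode co-repressors. All 9 were found once each in the deposited gene lists.

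TGF-β is secreted as a latent complex and must be activated before it binds. The active ligand joins the type II receptor (Tgfbr2), which phosphorylates the type I receptor (Tgfbr1), and this in turn phosphorylates SMAD2 and SMAD3, which enter the nucleus with SMAD4. SMAD7 is made in response and blocks the receptors, while SKI and SnoN, the product of Skil, bind SMADs at target genes and repress them. Microglia, the macrophages that reside in brain and spinal cord, are known to need TGF-β for their mature expression program, including genes such as P2ry12, Tmem119 and Sall1.

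The 8 libraries came from C57BL/6 mice that carried a tamoxifen-inducible Cre and YFP at the Cx3cr1 locus, on 1 allele. According to the methods, tamoxifen was injected for recombination ahead of all experiments. Control animals (Cx3cr1-yfp-creER/+) and A20 cKO animals (Cx3cr1-yfp-creER/+; Tnfaip3 fl/fl, in which the gene for the protein A20 is floxed) were naive, or were taken on day 1, 2 or 3 after transection of the sciatic nerve. Groups follow each sample's description, because a separate protocol label names bilateral transection for every sample, the naive ones included. Cords of several animals were pooled for each library, so each group had 1 library, and no replicate shows the spread between animals. YFP-positive cells were sorted, and according to the methods they were resuspended in a medium that held human recombinant TGF-β2, IL34 and cholesterol. All groups were given this medium, so transcript changes made by it before lysis cannot be told apart from the levels in the tissue. The Cre acts in any cell that uses the Cx3cr1 promoter, and the animals are described as young adults, of both sexes. Tnfaip3, the targeted gene, was at 6.83 to 25.3 CPM (UMIs in each 1000000 of the library) in the control libraries and at 42.3 to 67.7 CPM in the A20 cKO libraries, so its counts were higher, not lower, where it was floxed. The counts come from the 3′ ends of transcripts, and which exons are floxed is not stated in the labels or methods, so they do not check the deletion. Groups are therefore named as labelled, and a comparison of genotypes is one of labels.

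Of 14883 barcodes, 14626 were kept as cells with at least 1000 UMIs (unique molecular identifiers, which count captured RNA molecules), at least 500 genes and at most 10% mitochondrial UMIs. Libraries held between 558 and 3585 kept cells, with median depths from 2780 to 4274 UMIs. The microglia marker P2ry12 had a UMI in no fewer than 90.1% of cells in any library, while Fcrls was found in 26.7% to 97.6%. Control day 3 and the 4 A20 cKO libraries, from here on the linked libraries, shared 256 cell barcodes over 10 pairs, a median of 13.7 in each 1000000 possible pairs of cells. The 15 pairs that joined a linked library with control naive, day 1 or day 2 shared 98 barcodes, a median of 1.94. The ranges overlapped, at 5.41 to 67.6 for pairs of linked libraries and 0.797 to 8.83 for the 15 pairs. Control naive stood at 8.83 with A20 cKO day 1 and 8.51 with A20 cKO day 3, above control day 3 with A20 cKO naive (5.41). Of the 10 comparisons below, 2 cross this split, those that set control day 3 or A20 cKO naive beside control naive. Summed markers of astrocytes were 105 to 164 CPM in the other 3 libraries and 261 to 394 CPM in the linked ones, with all 6 of 6 markers higher in each linked library. Monocyte markers summed to 2.21 to 3.70 CPM and to 27.0 to 86.0 CPM, and 3 of their 6 markers were higher in each linked library, with Chil3 among those at 0 in the other 3. Neutrophil markers summed to 156 to 251 CPM and to 174 to 220.4 CPM, but 3 of 6 were higher in each linked library, and 5 of 6, with S100a8 and S100a9 among them, were at 0 in the other 3. Oligodendrocyte markers summed to 61.1 to 83.3 CPM and to 150.3 to 203 CPM. Their part in the results was not tested by itself. Without the 115 cells with UMIs of at least 3 markers of another type, none of the 90 ratios below moved beyond its counting interval. They are few of the 14626 kept cells, and transcripts of other types in the remaining cells stay. This step therefore cannot measure that part.

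The genes lie in different parts of the genome (build GRCm38). Tgfb1 is on chromosome 7 (25687002 to 25705077, plus strand), Tgfbr1 on chromosome 4 (47353222 to 47414931, plus strand) and Tgfbr2 on chromosome 9 (116084293 to 116175360, minus strand). Smad3 is on chromosome 9 (63646767 to 63757994, minus strand), Ski on chromosome 4 (155154075 to 155222592, minus strand) and Skil on chromosome 3 (31095058 to 31122577, plus strand). The promoters of Tgfb1, Tgfbr1 and Tgfbr2 are shown because most results below turn on the ligand and its receptors. Each line holds the 250 bases before the RefSeq start site (GRCm38.p6), read 5′ to 3′ on the gene's strand, at chr7:25686752-25687001, chr4:47352972-47353221 and chr9:116175364-116175613. Capitals mark matches, on either strand, to the GC box GGGCGG or to the Smad-binding letters CAGAC.

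Tgfb1: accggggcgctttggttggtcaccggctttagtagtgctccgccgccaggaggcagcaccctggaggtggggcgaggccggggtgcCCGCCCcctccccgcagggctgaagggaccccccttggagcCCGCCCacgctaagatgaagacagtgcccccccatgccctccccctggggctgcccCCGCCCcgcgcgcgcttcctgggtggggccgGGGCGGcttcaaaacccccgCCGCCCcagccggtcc
Tgfbr1: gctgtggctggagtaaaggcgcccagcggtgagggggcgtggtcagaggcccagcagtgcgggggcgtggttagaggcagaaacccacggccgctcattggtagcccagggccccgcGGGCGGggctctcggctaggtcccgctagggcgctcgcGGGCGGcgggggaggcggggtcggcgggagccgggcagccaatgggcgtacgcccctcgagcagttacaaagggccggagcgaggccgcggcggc
Tgfbr2: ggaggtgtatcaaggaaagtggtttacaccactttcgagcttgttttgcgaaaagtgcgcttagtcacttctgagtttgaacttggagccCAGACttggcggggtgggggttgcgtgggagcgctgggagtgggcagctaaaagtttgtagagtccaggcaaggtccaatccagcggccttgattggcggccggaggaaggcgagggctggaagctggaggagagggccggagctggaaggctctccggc

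The Tgfb1 window held 5 GC boxes, the letters bound by Sp1-type factors, and the Tgfbr1 window held 2. The Tgfbr2 window held none and had 1 match to CAGAC, 160 to 156 bases before the start. Of 32851 promoter windows of this length, 32.7% held a GC box and 42.2% held CAGAC. Neither the AP-1 letters TGANTCA, found in 6.75% of windows, nor the E-box CACGTG, found in 6.02%, occurred in these windows or in those of Smad3 and Ski. GC content was 75.2%, 74.8% and 58.4% for Tgfb1, Tgfbr1 and Tgfbr2, against a median of 52.4% over all windows. These matches describe the letters only.

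**Figure D1:**
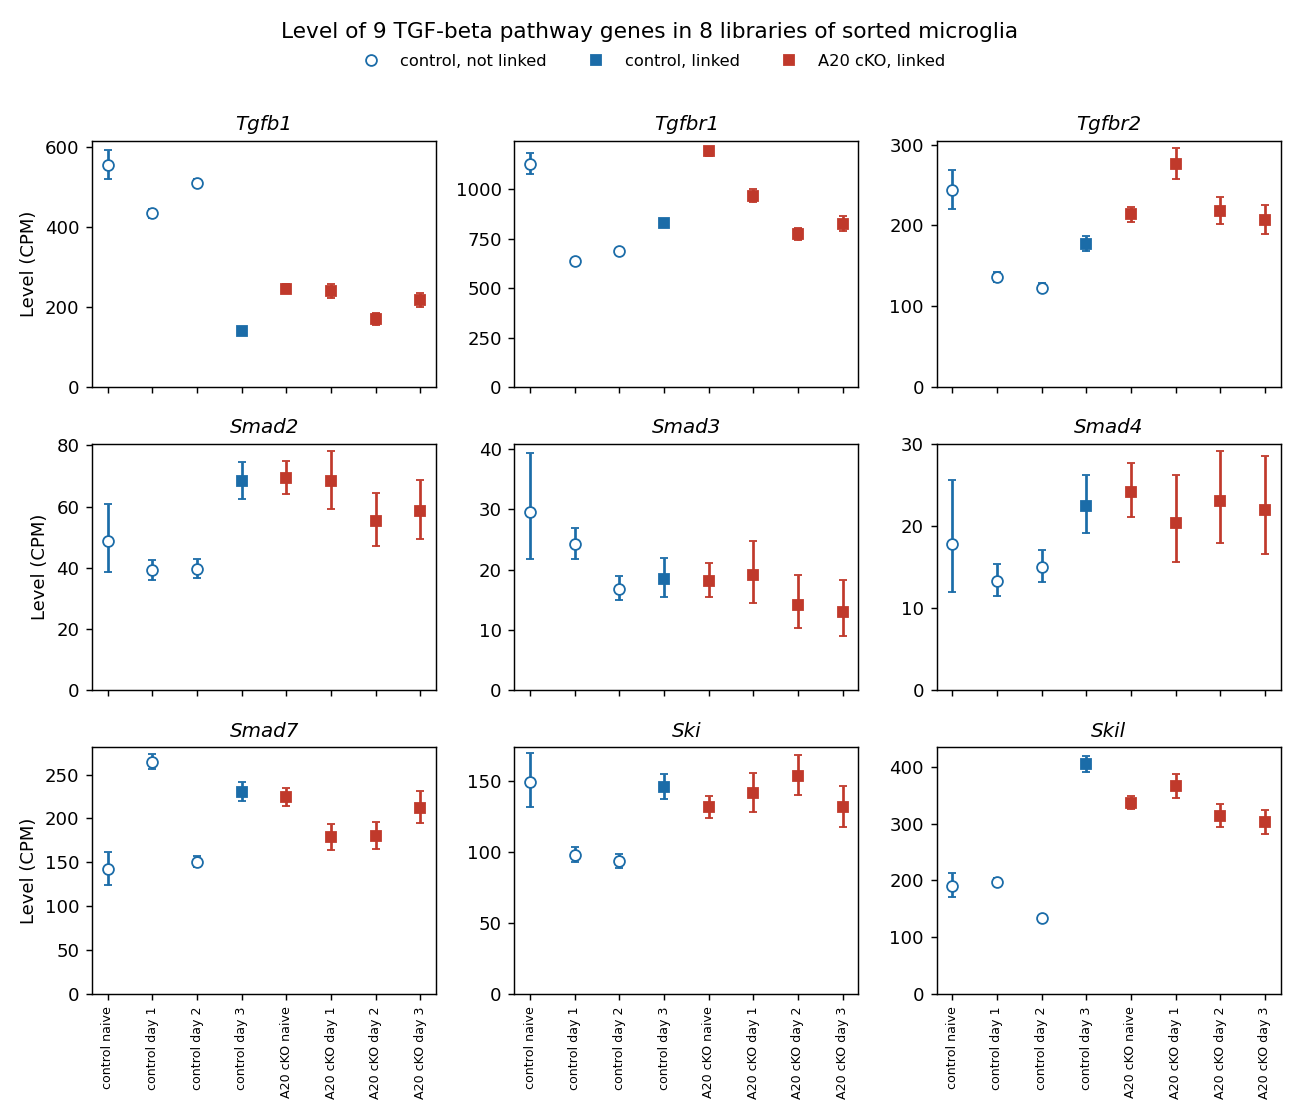
Level of each gene (CPM, vertical axis from 0) in the 8 libraries (horizontal axis), with exact Poisson 95% intervals for counting error. Open circles are control naive, day 1 and day 2, filled blue squares control day 3 and red squares A20 cKO. Tgfb1 is lower, and Skil higher, in every linked library than in the other 3.

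Levels are given as CPM with exact Poisson 95% intervals, which cover counting error only. They are compared between libraries within a gene, not between genes. A gene was called past the threshold where the ratio of 2 libraries was at least 1.5-fold in either direction, without a test, because each group had 1 library.

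The ligand gene Tgfb1 differed more between libraries than any other of the 9. Before injury it stood at 555 CPM (520 to 593) in control, followed by 435 (424 to 446), 510.3 (499 to 522) and 142 (133 to 151) after 1, 2 and 3 days. The A20 cKO libraries held 246 CPM (236 to 257) of Tgfb1 before injury, followed by 239.7 (223 to 258), 169.8 (155 to 185) and 218 (199.8 to 237). The 3 control libraries outside the linked ones were all above the 5 linked libraries, and control day 3 was below all 4 A20 cKO libraries without overlap of intervals. The highest level was 3.92 times the lowest. In cells thinned to 2000 UMIs each, which removes differences in depth, a Tgfb1 UMI was found in 57.9% to 64.4% of cells of the 3 other libraries and in 24.4% to 38.6% of the linked ones. Without thinning these shares were 76.4% to 86.3% and 36.5% to 57.7%. As a gauge of free RNA, Mbp, a myelin gene that microglia do not make, was read in kept cells. It had a UMI in 5.42% to 6.53% of cells of the 3 other libraries and in 18.5% to 41.5% of the linked ones. The part of free RNA in the levels was not tested. No cell type known to lack the 9 genes was sorted, so their own background was not measured.

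Tgfbr1, the type I receptor, had 1129 CPM (1078 to 1182) in uninjured control microglia, followed by 636 (623 to 650), 685 (672 to 698) and 829 (808 to 850.4) after 1, 2 and 3 days. Uninjured A20 cKO microglia had 1191 CPM (1169 to 1214), followed by 967 (932 to 1003), 773 (742 to 805) and 826 (791 to 862). The naive libraries of both genotypes were the highest, with overlapping intervals, and control day 1 was the lowest. Between 71.5% and 87.3% of thinned cells had a UMI of Tgfbr1, and 89.2% to 94.7% without thinning.

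The type II receptor gene Tgfbr2 had 244 CPM (220.3 to 269) before injury in control, followed by 136 (130.2 to 142), 123 (118 to 129) and 177 (168 to 187). With A20 cKO its level was 214 CPM (204 to 223) before injury, followed by 276 (258 to 296), 218 (202 to 235) and 207 (189 to 225). Control day 1 and day 2 were the lowest of the 8, and A20 cKO day 1 was the highest, although its interval overlapped that of control naive. Tgfbr2 was found in 22.0% to 44.1% of thinned cells (40.3% to 59.3% without thinning). UMIs of both receptors were found together in 16.5% to 35.5% of thinned cells. In every library this share was within 0.6 percentage points of the product of the single shares, for example 32.9% against 32.9% in control naive and 18.2% against 17.7% on control day 1.

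The signal carriers had few UMIs. Smad2 and Smad4 are on chromosome 18, as is Smad7. Smad2, which the type I receptor phosphorylates, went from 48.8 CPM before injury to 39.2, 39.6 and 68.5 CPM after it in control. The A20 cKO libraries held 69.4, 68.4, 55.4 and 58.6 CPM of Smad2 in the same order. All 5 linked libraries were above the other 3, but each level overlapped its neighbour in the order. Smad4, the partner of both receptor-activated SMADs, showed the same arrangement, with 17.9, 13.4, 15.1 and 22.5 CPM for the control series and 24.2, 20.5, 23.1 and 22.0 CPM for the A20 cKO series.

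Smad3, the other receptor-activated SMAD, was highest in control naive at 29.6 CPM (21.8 to 39.3). The later control libraries had 24.3, 16.9 and 18.5 CPM, and the A20 cKO series ran 18.2, 19.2, 14.2 and 12.98 CPM. All neighbours in this order overlapped. Thinned cells had a UMI of Smad2 in 7.44% to 12.9%, of Smad3 in 2.24% to 7.37% and of Smad4 in 2.90% to 5.27% (13.03% to 21.0%, 5.13% to 9.81% and 4.93% to 9.90% without thinning). At this depth neighbours in the order are within counting error for these 3 genes, while libraries further apart can be clear of each other. For Smad2, control day 1 (36.0 to 42.6) and day 2 (36.6 to 42.9) were below A20 cKO day 2 (47.3 to 64.4), the lowest linked library.

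Smad7, the inhibitor made in response to the signal, had 142 CPM (124 to 162) in uninjured control microglia, followed by 265 (256 to 274), 150.4 (144 to 157) and 231 (219.8 to 242). Uninjured A20 cKO microglia had 224 CPM (215 to 235), followed by 178 (164 to 194), 180.3 (166 to 196) and 212 (195 to 231). Control day 1 was above every other library. Its thinned share of cells with a UMI was 39.3% there and 23.1% in control naive, the lowest (61.2% and 34.0% without thinning).

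For Ski the control series ran 149, 97.8, 93.5 and 146 CPM, and the A20 cKO series 131, 141, 154 and 131 CPM. Control day 1 and day 2 stood below the other 6 libraries, whose neighbours in the order all overlapped. For Skil they ran 191, 197, 133 and 405 CPM, and 337, 366, 314 and 303 CPM, so that the 5 linked libraries were all above the other 3. A UMI of Skil was found in 53.5% of thinned cells on control day 3 and in 23.6% on control day 2 (70.3% and 42.4% without thinning).

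Altogether, the values of 4 genes were separate between the linked libraries and the other 3, Tgfb1 lower and Smad2, Smad4 and Skil higher in the linked ones. For Smad2 and Smad4 only the values were separate, since counting intervals of the 2 sets overlapped. Over 11045 genes, 19.9% were higher in every linked library and 9.68% lower, so such an arrangement was common.

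**Figure D2:**
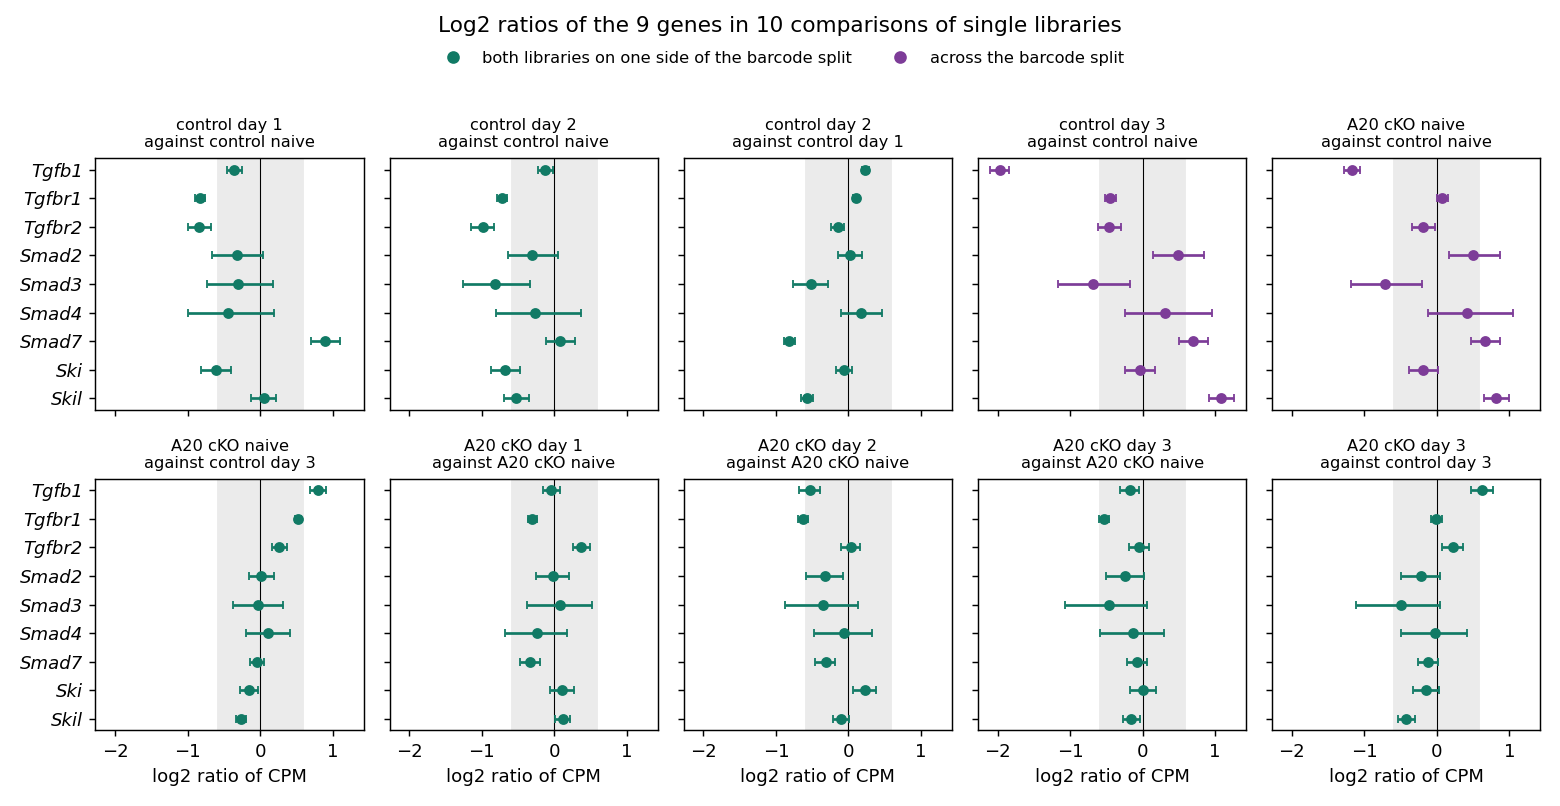
Log2 ratio of CPM of the 9 genes (vertical axis) in 10 comparisons of single libraries, with exact conditional 95% intervals for counting error. Grey marks ratios under 1.5-fold, green the 8 comparisons on one side of the barcode split and purple the 2 that cross it. The widest change is that of Tgfb1 in control day 3 against control naive, at -1.97.

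The next comparisons asked how the genes stood after nerve injury in control microglia. On day 1 the receptors were lower than in the naive library and the inhibitor was higher. The log2 ratio was -0.83 (-0.90 to -0.75) for Tgfbr1, -0.84 (-0.997 to -0.68) for Tgfbr2 and -0.61 (-0.81 to -0.41) for Ski. Smad7 was higher by 0.90 (0.71 to 1.10), a ratio above that of 95.2% of all genes. Thus 1 gene was past the threshold upwards, where 10.6% of 8866 genes were, and 3 downwards, where 21.4% were. The median gene was at -0.13 in this comparison, and relative to it Ski was no longer past the threshold (-0.49), which left 1 gene higher and 2 lower, against 14.2% and 15.3% of all genes. Immediate-early genes, which are switched on within minutes by many stimuli including tissue handling, summed to 24706 CPM on control day 1 and 1424 CPM in control naive, with 13 of 13 tested genes past the threshold. Fos had a UMI in 99.7% of day 1 cells and in 4.93% of naive cells.

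Whether Smad7 went with Fos in single cells could be read within libraries. In A20 cKO naive, Smad7 was at 269 CPM in the 1001 thinned cells with a Fos UMI and at 209 CPM in the 1611 without, a log2 ratio of 0.36 (0.19 to 0.52). On control day 1 it was at 272 CPM in 3183 cells with Fos and 309.5 CPM in 42 without, -0.22 (-0.74 to 0.43). The intervals of the other 4 libraries with at least 20 cells on each side also held 0, with ratios from -0.14 to 0.13. Without thinning the Smad7 interval lay above 0 in 2 of 7 libraries. These were A20 cKO naive (0.25, 0.12 to 0.38) and control day 3 (0.18, 0.04 to 0.32). In thinned cells Tgfbr1 and Tgfbr2 also had 1 of 6 intervals above 0 each, and Ski had 1 below. Without thinning Tgfbr1 had 5 of 7 intervals below 0. The share of all genes was not counted for this split.

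On control day 2 the receptors were still lower than in the naive library. Tgfbr2 was at -0.99 (-1.14 to -0.83), Tgfbr1 at -0.72 (-0.79 to -0.65), Smad3 at -0.82 (-1.26 to -0.34) and Ski at -0.68 (-0.87 to -0.47). No gene was past the threshold upwards (13% of 9279 genes) and 4 were downwards (19.8%). Relative to the median gene, which was at -0.12, Ski (-0.56) was not past the threshold and 3 were, against 14.3% of all genes (16.4% were higher). Smad7 was near its naive level (0.08, -0.11 to 0.29).

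Against day 1, control day 2 was lower in Smad7, at -0.82 (-0.89 to -0.74), and all but 2.44% of genes had a ratio above that. Skil stood just inside the threshold at -0.57 (-0.65 to -0.49) and passed it relative to the median gene (-0.61). The background was 8.57% of 9982 genes higher and 4.44% lower, or 7.79% and 5.07% relative to the median gene. Tgfbr1 (0.11) and Tgfbr2 (-0.15) differed little between these days.

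Control day 3 against control naive crosses the barcode split, so library and day cannot be told apart there. Tgfb1 was at -1.97 (-2.10 to -1.84) and only 0.253% of genes were lower. Smad3 was at -0.69 (-1.16 to -0.17), Skil at 1.08 (0.92 to 1.26) and Smad7 at 0.70 (0.50 to 0.91). Thus 2 genes were past the threshold in each direction, beside 20.3% of 8302 genes higher and 10.3% lower. Tgfbr1 (-0.45) and Tgfbr2 (-0.46) were lower than in control naive but not past the threshold.

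The comparison of the naive libraries asked what A20 cKO differs in before injury, and it too crosses the split. Tgfb1 was lower in A20 cKO, at -1.17 (-1.29 to -1.06), and so was Smad3, at -0.72 (-1.18 to -0.21), which was not past the threshold as the mean of single-cell CPM (-0.53). Skil (0.82, 0.65 to 1.00) and Smad7 (0.66, 0.46 to 0.86) were higher. These are the 4 genes past the threshold on control day 3, in the same directions, and both comparisons share control naive. The background was 18.8% of 8641 genes higher and 9.04% lower. The receptors stood close to control naive, with Tgfbr1 at 0.08 (0.01 to 0.15) and Tgfbr2 at -0.19 (-0.35 to -0.03).

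Within the linked libraries, A20 cKO naive had more Tgfb1 than control day 3, by 0.80 (0.69 to 0.91), above 98.3% of all genes. Tgfbr1 was higher by 0.52 (0.48 to 0.57), inside the threshold but above 95.3% of genes. Smad7 (-0.04), Smad2 (0.02) and Smad3 (-0.03) had ratios near 0. Hence 1 gene was past the threshold upwards (3.64% of 9541 genes) and 0 downwards (4.84%).

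The injured A20 cKO libraries were compared with A20 cKO naive, all within the linked set. On day 1 none of the 9 was past the threshold, beside 7.04% of 8919 genes higher and 5.29% lower. Tgfbr2 was at 0.37 (0.25 to 0.49), Tgfbr1 at -0.30 (-0.36 to -0.24) and Smad7 at -0.33 (-0.47 to -0.19), and the other 6 lay between -0.23 and 0.12. Immediate-early genes were lower here, at 1264 CPM against 5691 CPM in A20 cKO naive.

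On A20 cKO day 2, Tgfbr1 was past the threshold at -0.62 (-0.69 to -0.56), beside 10.3% of 8921 genes lower and 7.14% higher. It was not past it relative to the median gene (-0.55), where 8.06% of genes were lower and 9.19% higher, or without dividing cells (-0.56). Tgfb1 was at -0.54 (-0.68 to -0.40), just inside. On A20 cKO day 3 none was past it, with Tgfbr1 at -0.53 (-0.60 to -0.46), beside 5.55% of 8797 genes higher and 9.33% lower. Tgfbr2, which was lower on control day 1 and day 2, was at 0.03 and -0.05 on A20 cKO day 2 and day 3. Ratios to the naive library with opposite signs in the 2 genotypes, both intervals clear of 0, were found for 2 of the 9 genes on day 1 (Tgfbr2 and Smad7), where 6.49% of all genes had them. On day 2 they were found for 1 gene (Ski, 3.8% of all genes) and on day 3 for 1 (Skil, 8.31%), and the difference between genotypes was not tested.

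On day 3 both genotypes could be compared within the linked libraries. Tgfb1 was higher in A20 cKO, at 0.62 (0.47 to 0.77), or 0.74 relative to the median gene, which was at -0.12. As the mean of the CPM of single cells the ratio was 0.58, just under the threshold. It was the only one of the 9 past the threshold, beside 4.98% of 8488 genes higher and 9.91% lower, or 6.97% and 6.61% relative to the median gene. Skil was lower at -0.42 (-0.54 to -0.31), and for Tgfbr1 the interval held 0 (-0.01, -0.08 to 0.07). Tgfbr2 was at 0.22 (0.07 to 0.37).

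**Figure D3:**
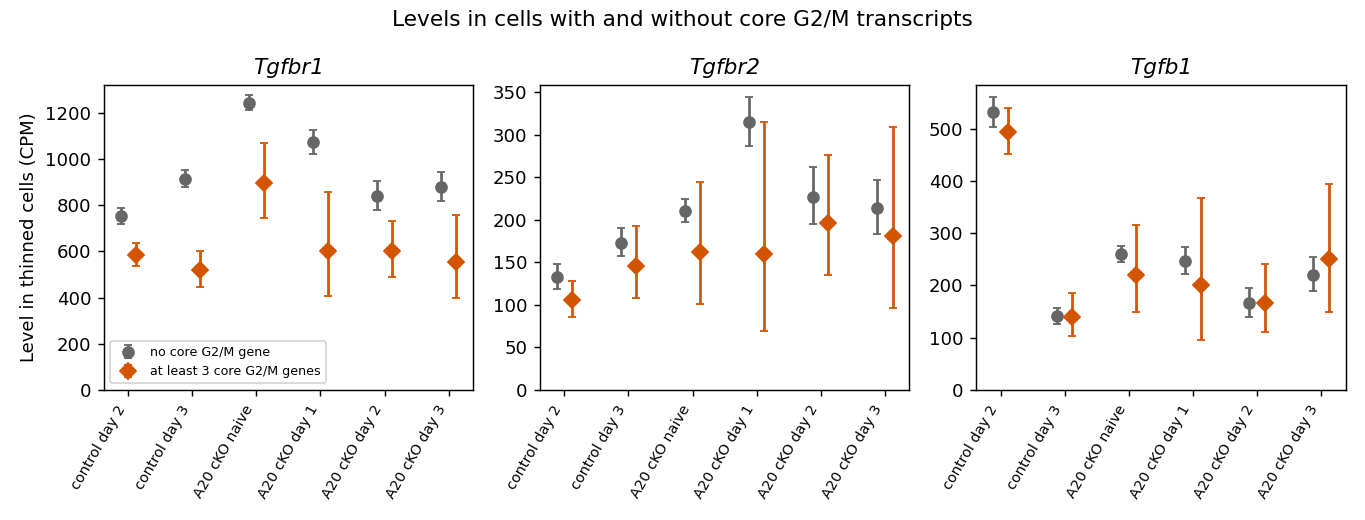
Level (CPM in thinned cells, vertical axis from 0) of Tgfbr1, Tgfbr2 and Tgfb1 in cells with UMIs of at least 3 core G2/M genes (orange diamonds) and in cells with none (grey circles), for the 6 libraries with at least 20 cells of each kind. Bars are exact Poisson 95% intervals, and Tgfbr1 is lower in the G2/M cells of all 6 libraries.

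Microglia divide after this injury, so the genes were also compared between dividing and other cells of the same library, which involves no comparison across the split. From a list of 18 core G2/M genes, cells with UMIs of 3 or more were set against cells with none, after thinning to 2000 UMIs. In 6 libraries both classes held at least 20 cells, 871 and 6355 in all, and another 2738 cells with 1 or 2 of these genes were in neither class. These were 49.8% of the thinned cells on control day 2 and 8.92% to 24.3% elsewhere, so the classes are the ends of a range.

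Tgfbr1 was lower in the G2/M cells of all 6 libraries. On control day 2 it was at 586 CPM in G2/M cells and 752 in the others, a log2 ratio of -0.36 (-0.50 to -0.22). The levels were 521 and 915 CPM on control day 3 (-0.81), 897 and 1246 in A20 cKO naive (-0.47), and 600.0 and 1074 on A20 cKO day 1 (-0.82). They were 601 and 841 CPM on A20 cKO day 2 (-0.48) and 556 and 881 on A20 cKO day 3 (-0.65). Every one of these intervals lay below 0, as for 28 of 1447 genes tested in all 6 libraries (1.94%). The median gene's ratio was at most 0.0241 from 0 in each library.

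A test over the 6 libraries was added after this was seen, with 2 sums per library and the library as a block. By edgeR's quasi-likelihood test Tgfbr1 fell in G2/M cells by 0.64 log2 (SE 0.09, Benjamini-Hochberg adjusted p = 1.02e-08). Tgfbr2 fell by 0.40 (SE 0.12, edgeR adjusted p = 0.0127), and its ratio was below 0 in 6 of 6 libraries, though only 1 of the 6 counting intervals lay below 0. Without thinning the ratio of Tgfbr2 on A20 cKO day 3 was 0.03. Over 8114 genes tested, 8.26% were called lower and 11.1% higher. Of the other 7 genes 0 were called, and 0 had an unadjusted p under 0.05 in edgeR or an adjusted one in DESeq2. Smad7 was at -0.24 (edgeR adjusted p = 0.18) and Skil at -0.13 (edgeR adjusted p = 0.47). Both passed when cells were not thinned (edgeR adjusted p = 0.00545 and 0.0160), where 1236 of 9312 genes were called lower and 1556 higher. In thinned cells Smad3 was at -0.61 with an SE of 0.39 and edgeR adjusted p = 0.30. Because the pattern was noticed in these data first, the p-values do not stand as an independent test.

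The share of dividing cells was 32.8% on control day 2, 16.3% on A20 cKO day 2 and 0.176% in control naive, counted without thinning. After thinning, 490 of 3480 cells on control day 2 and 84 of 626 on A20 cKO day 2 were G2/M cells. In thinned cells the gap between these libraries was much smaller, although their median depths before thinning were close, at 3911 and 4128 UMIs. Cells with 1 or 2 of the core G2/M genes were 49.8% of thinned cells on control day 2 and 21.4% on A20 cKO day 2. Why the gap narrowed was not tested. Leaving out the dividing cells counted without thinning brought Tgfbr1 on control day 2 from -0.72 to -0.59 against control naive, still past the threshold. On control day 1, where 0.301% of cells were dividing, Tgfbr1 stood at -0.83 with or without them.

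The spread of UMIs between cells of a library was close to that of random sampling for most of the genes. The variance over the mean in thinned cells, which is 1 for Poisson counts, was 1.13 to 1.58 for Tgfbr1. It reached 1.25 for Skil and 1.23 for Smad7 and stayed between 0.93 and 1.18 for the other 6.

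Other genes of the pathway were read from a list of 48, of which 31 to 35 had enough UMIs in a comparison. Tgfb2 and Tgfb3, the genes of the other ligands, were nearly absent, at 0 to 3.27 CPM and 0 to 0.112 CPM. Nrros, whose product holds latent TGF-β1 on microglia, ran 226, 319, 195 and 127 CPM over the control series and 162, 192, 103 and 122 CPM over the A20 cKO series. On control day 1, 1 of 33 was past the threshold upwards and 12 downwards, and on control day 2, 1 and 14 of 34. Of all genes 10.6% and 21.4% were past it on day 1, and 13% and 19.8% on day 2. Relative to the median gene these counts were 3 and 9, and 3 and 10. Bmpr2, a type II receptor for bone morphogenetic proteins, was at 74.1 CPM in control naive and 29.7 on day 1 (-1.32, -1.61 to -1.01), and at 31.0 on day 2. Smad5, a carrier of bone morphogenetic protein signals, was at -0.98 (-1.41 to -0.52) on day 1. Pmepa1, a target and inhibitor of the pathway, was at 281, 149 and 159 CPM in control naive, day 1 and day 2. Acvrl1, a type I receptor, was the gene higher on day 1, at 0.63 (0.22 to 1.10).

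In A20 cKO the counts against the naive library were 0 higher and 1 lower of 32 on day 1, 1 and 6 of 33 on day 2, and 0 and 6 of 31 on day 3. The shares of all genes were 7.04% and 5.29%, 7.14% and 10.3%, and 5.55% and 9.33%. Acvr2b, a type II receptor for activins, was at 34.3 CPM in A20 cKO naive and 21.8, 16.2 and 10.6 CPM on day 1, 2 and 3. The last is a log2 ratio of -1.67 (-2.32 to -1.12). On day 3 against control day 3, 1 of 32 was higher and 5 were lower (4 relative to the median gene), beside 4.98% and 9.91% of all genes. Tgif1, a repressor that binds SMADs, was higher at 0.90 (0.62 to 1.17), while Acvr2b (-1.66), Wwp1 (-0.97), a ubiquitin ligase, and Itgav (-0.70), an integrin subunit that takes part in activating the ligand, were lower. Within the linked libraries Tgif1 was also higher in A20 cKO naive than on control day 3, at 0.82 (0.62 to 1.03). Across the split 6 of 32 were higher and 4 lower on control day 3, and 7 and 3 in A20 cKO naive, both against control naive. These shares are near those of all genes, 20.3% and 10.3%, and 18.8% and 9.04%. Usp9x (1.10 and 0.99) and Usp15 (0.83 and 0.84), which encode deubiquitinases, were higher in both.

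Genes that TGF-β is known to induce in many cells were read from a list of 16, of which 9 or 10 could be tested. On control day 1, 5 of 9 were past the threshold upwards and 1, Pmepa1, downwards, beside 10.6% and 21.4% of all genes. Junb, which is also an immediate-early gene, was at 460.4 CPM in control naive and 3206 on day 1 (2.80, 2.70 to 2.91), and Id2, a transcriptional inhibitor, was at 51.8 and 182 CPM (1.80, 1.498 to 2.14). On control day 2 against day 1, 1 of 10 was higher and 3 were lower, among them Junb (-2.66) and Id2 (-1.52), beside 8.57% and 4.44% of all genes. Against A20 cKO naive, 4 of 9 were lower on A20 cKO day 1 and none higher, with Junb at -0.94 and Id2 at -0.60, beside 5.29% and 7.04% of all genes. On day 3 of A20 cKO against control, 2 of 10 were higher and 2 lower (4.98% and 9.91% of all genes), and Cdkn1a, a cell cycle inhibitor, was among the higher ones (0.86).

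**Figure D4:**
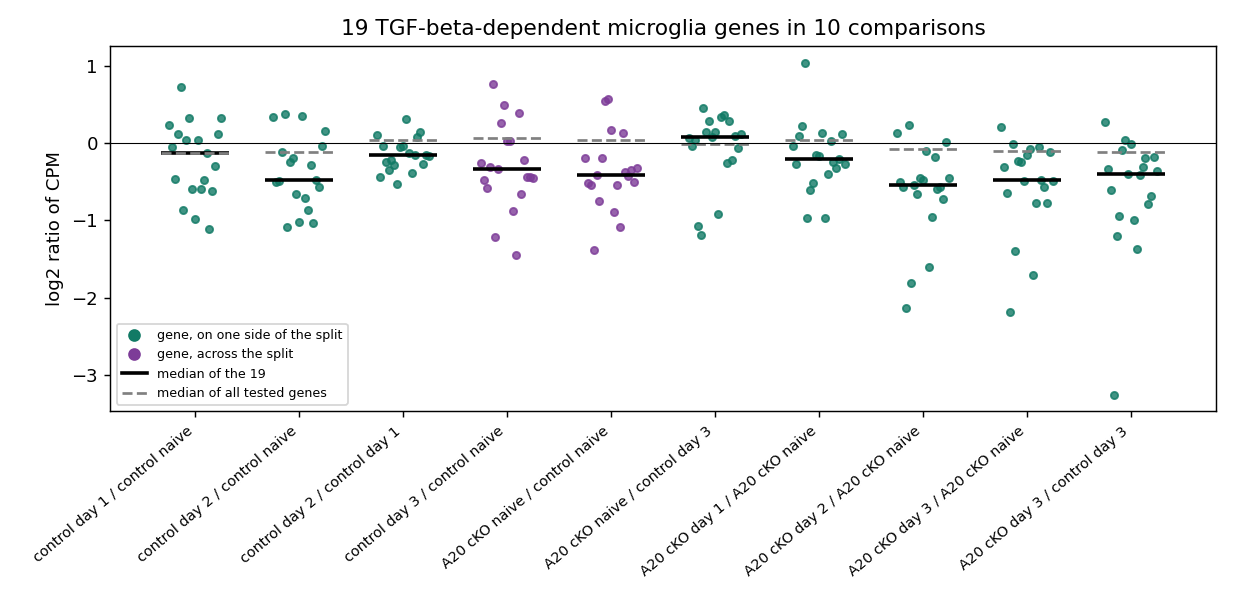
Log2 ratio of CPM (vertical axis) of the 19 TGF-β-dependent microglia genes, 1 point a gene, in the 10 comparisons (horizontal axis). Black bars are the median of the 19 and dashed grey bars that of all tested genes, and in A20 cKO day 3 against control day 3 these are at -0.40 and -0.12.

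Genes of the microglia program that TGF-β is known to maintain were read from a list of 19, all with enough UMIs in every comparison. On control day 1 against naive, 1 was higher and 6 lower (10.6% and 21.4% of all genes), and the median of the list (-0.13) was that of all genes. Relative to the median gene 3 were lower, beside 15.3% of all genes. On control day 2, 6 were lower and 0 higher (19.8% and 13% of all genes) with a median of -0.47 against -0.12 for all genes, and 5 were lower relative to the median gene, beside 14.3% of all genes. Gpr34, a lysophosphatidylserine receptor, was at 1840 CPM in control naive and at 1006 and 866 CPM on day 1 and day 2. Sall1, a transcription factor of microglia identity, was at 189 CPM in control naive, with log2 ratios of -1.11 and -1.03 on those days. Mertk, a receptor for engulfing dead cells, was at 292, 148 and 144 CPM. Gas6, which encodes a ligand of MERTK, was the gene higher on day 1, at 0.72 (0.51 to 0.94).

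In A20 cKO against its naive library 1 was higher and 3 lower on day 1, 0 and 7 on day 2, and 0 and 6 on day 3, with list medians of -0.21, -0.54 and -0.47. All genes had medians of 0.04, -0.07 and -0.10, and 5.29%, 10.3% and 9.33% of them were lower and 7.04%, 7.14% and 5.55% higher. P2ry12, the purinergic receptor used as a microglia marker, was at 2755, 1414, 908 and 845 CPM in A20 cKO naive, day 1, day 2 and day 3. Fcrls was at 512, 597, 116 and 113 CPM, and Gpr34 at 1094, 561, 313 and 414 CPM. On day 3, A20 cKO against control had 8 lower and 0 higher (9.91% and 4.98% of all genes), or 6 lower relative to the median gene (6.61%), with Fcrls at -3.25 (-3.43 to -3.08), P2ry12 at -1.37 (-1.44 to -1.31) and Gas6 at -1.20. In A20 cKO naive against control day 3, 3 were lower, beside 4.84% of all genes: Gas6 (-1.19), Fcrls (-1.07) and Olfml3 (-0.92), a secreted protein. Across the split the list medians were -0.34 on control day 3 and -0.42 in A20 cKO naive, against 0.07 and 0.04 for all genes. On control day 2 against day 1 none of the 19 was past the threshold. Several of these genes are also the markers of microglia, so fewer microglia among the cells and less RNA per microglia would both lower them. In the A20 cKO series the summed monocyte markers stood at 37.1 CPM before injury. They were slightly lower at day 1 (34.3 CPM) and higher at day 2 (86.0 CPM) and day 3 (60.6 CPM). Their part in the levels of the 19 genes was not tested further.

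The genes whose levels followed each of the 9 most closely were found over the 8 libraries, after centring log2 CPM within the linked libraries and within the other 3. Likeness was the root mean square difference over 3286 genes with at least 50 CPM, and 7 of the 9 genes reached that level. Creb1 was nearest to Tgfb1 (0.0986, where the median gene was at 0.319), and Frmd4b was nearest to Tgfbr1 (0.0780, median 0.308). Tmed7 was nearest to Tgfbr2 (0.0894), Macf1 to Smad2 (0.0351), Taf7 to Smad7 (0.0762), Ddi2 to Ski (0.0566) and Zcchc6 to Skil (0.0681). With 8 libraries these orders are a description.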

How the data were processed

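Single-cell RNA-seq of sorted lumbar microglia was used from 8 libraries. Deposited values are UMI counts for each gene and barcode, which the authors did not normalize. The submitters' processing notes name Cell Ranger 2.1.1 and the build mm10. The kit is v3.1 in the labels and v3 in the methods, and the study's integrated values were not used here. UMIs of kept cells were summed per library and scaled to CPM. Of 27998 gene identifiers, 27645 (98.7%) matched GENCODE M21. For log2 ratios 0.5 UMIs were added, and genes whose 2 sums reached 100 UMIs were read against the 1.5-fold threshold. Intervals are 95% exact Poisson, Clopper-Pearson (shares) or conditional (ratios), and cover counting error only. Libraries held 1648400 to 15817426 UMIs. Shares used 13691 cells thinned to 2000 UMIs, and 935 shallower cells were left out. No doublet caller was run. Dividing cells were tested with edgeR 4.0.16 (R 4.3.3, TMM, filterByExpr) and DESeq2 1.42.0 on thinned sums. In simulated data for that comparison (7914 genes), 48.5% of genes changed 2-fold and 98.9% of those changed 4-fold were recovered.

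The 9 genes and all lists were chosen with earlier results of these data known. From the 3 lists of pathway, induced and microglia genes, the text names up to 3 genes in each direction past the threshold with a mean of at least 20 CPM. Some genes that this rule names are not reported here. Nrros, Tgfb2, Tgfb3 and levels of named genes in further libraries were added after their values were seen. Marker lists covered microglia, oligodendrocytes, astrocytes, neurons, endothelial and mural cells, monocytes, border macrophages, lymphocytes and neutrophils. Over all 8 libraries their sums reached at most 12.9 CPM for neurons and 51.2 for endothelial and mural cells. They reached at most 4.28 CPM for border macrophages, 3.67 for lymphocytes and 251 for neutrophils. Microglia markers summed to 19957 to 24672 CPM in control naive, day 1 and day 2 and to 11892 to 18936 CPM in the linked libraries. Of these 8 markers 2 were lower in each linked library. Alternatives changed the cells, the denominator, the averaging, the thinning and the tool. Promoter windows were taken from RefSeq and were found for 5 of the 9 genes, of which 3 are shown.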

Additional observations from a re-analysis of the deposited data

Results flagged for a closer look

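For 4 of the 9 genes the ratio to the naive library had opposite signs in control and A20 cKO on the same day, with both counting intervals clear of 0. By the same rule 6.49% of 8449 genes had opposite signs on day 1, where 2 of the 9 did, 3.8% of 8642 on day 2, where 1 did, and 8.31% of 8210 on day 3, where 1 did. The difference between genotypes was itself not tested, since each group had 1 library. On day 1 Tgfbr2 was at -0.84 (-0.997 to -0.68) in control and 0.37 (0.25 to 0.49) in A20 cKO, and Smad7 was at 0.90 (0.71 to 1.10) and -0.33 (-0.47 to -0.19). Immediate-early genes moved the same way as Smad7 on that day, from 1424 to 24706 CPM in control and from 5691 to 1264 CPM in A20 cKO, and their part in the result was not tested. On day 2 Ski was at -0.68 (-0.87 to -0.47) in control and 0.23 (0.07 to 0.38) in A20 cKO. On day 3 Skil was at 1.08 (0.92 to 1.26) in control and -0.16 (-0.27 to -0.04) in A20 cKO, and the control ratio crosses the barcode split.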

How the results depend on the processing

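Among the 90 ratios of the 9 genes, 8 moved by more than their counting interval when taken relative to the median gene, 5 without cells with at least 3 core G2/M genes and 3 as the mean of single-cell CPM. In these and in the other alternatives run (all deposited barcodes, a stricter cell filter, no shared barcodes, no cells with markers of other types, another denominator) 0 called ratios changed sign. The number past 1.5-fold in control day 2 against day 1 was 1, and 2 with the median gene as zero. In A20 cKO day 2 against naive it was 1, and 0 relative to the median gene, without G2/M cells, or without mitochondrial, ribosomal-protein and immediate-early genes in the denominator. As the mean of single-cell CPM, Smad3 in A20 cKO naive against control naive (-0.53) and Ski on control day 1 (-0.56) were not past it, nor was Ski with the other denominator (-0.57). In A20 cKO day 3 against control day 3 it was 1, and 0 as the mean of single-cell CPM. Of 54 pairs of gene and library, 17 were past 1.5-fold between G2/M and other cells after thinning and 8 without thinning. Tgfbr1 held 3 of the 17 and Tgfbr2 held 1, and for the other genes every thinned interval held 0. The share of all genes past 1.5-fold here was not counted. By edgeR 2 of the 9 genes were called in G2/M cells, 4 without thinning and 2 by DESeq2. Of 8114 genes 8.26% were called lower and 11.1% higher by edgeR, and without thinning 1236 and 1556 of 9312. When each library was left out, 2 of the 9 were called each time. Tgfbr1 then stayed between -0.70 and -0.60 (edgeR adjusted p from 1.20e-09 to 1.49e-05) and Tgfbr2 between -0.44 and -0.34 (edgeR adjusted p from 0.0229 to 0.0467). No paired analysis was possible because, for the comparisons between groups, the labels give no replicate numbers and each group had 1 library. The test of G2/M cells within libraries is itself blocked by library. Leaving out a replicate was possible only in that test for the same reason. Shares of cells depend on the depth they are thinned to, and Smad2, Smad3 and Smad4, with 1024 to 2899 UMIs in all libraries, are limited by depth.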
